A study of Mus musculus with 2 samples.

Results

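The genes described here encode the core of the machinery that fuses synaptic vesicles with the presynaptic membrane: the SNARE genes Snap25, Stx1a, Vamp1 and Vamp2, the complexin genes Cplx1 and Cplx2, and Nsf and Napb, which take SNARE complexes apart. They are the 8 genes, of 43346 Ensembl genes in the tables, whose identifier maps to those symbols, and all 8 were measured; their 34 transcripts are among 103639. The samples are 2 poly(A) RNA libraries made from brain tissue of 1 adult male mouse of the inbred strain C57BL/6J, aged 10 weeks, with no treatment named. They are labelled technical replicates 2 and 1 of biological replicate 1, and replicate 2 was made after the publication that the labels name. Whether they share 1 piece of tissue or 1 RNA extract is not given in the labels.

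In vesicle fusion, a SNARE protein on the vesicle (a synaptobrevin, made from Vamp1 or Vamp2) zips together with syntaxin and SNAP-25 on the plasma membrane, and the bundle pulls the membranes into contact. Complexins bind the partly zipped bundle and both hold it back and help it to fire when calcium arrives. Afterwards the ATPase NSF, recruited by SNAP adaptor proteins, of which beta-SNAP from Napb is the form enriched in brain, pulls the spent bundle apart so that its parts can be used again.

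The tables held 17828479 counts for replicate 2 and 18302506 for replicate 1. TPM, the authors' transcript level per length, sums to an equal total in both. Neuronal markers were present and higher in TPM in replicate 2. Eno2 had 689 TPM in replicate 2 and 85.2 TPM in replicate 1, Tubb3 308.7 and 25.7 TPM and Rbfox3 130.5 and 14.7 TPM. The GC content of these genes was 55.6, 57.9 and 57.9%. Against genes of like GC content, a comparison described below, their log2 ratios were 0.37, 0.32 and -0.13. The part of these markers in the ratios of the members was not tested. Astrocytes (Slc1a2, 346.1 TPM in replicate 2 and 396.7 TPM in replicate 1) and oligodendrocytes (Mobp, 830.9 and 693.6 TPM) were also represented. Markers within a cell type differed in direction: the astrocyte gene Gfap had 109.3 TPM in replicate 2 and 15.3 TPM in replicate 1. Of the other cell types, C1qa of microglia had 70.5 and 1.95 TPM, P2ry12 of microglia 34 and 47.7 TPM, and Cldn5 of endothelial cells 48.6 and 0.4 TPM. The other endothelial markers differed less, with 12.7 and 3.76 TPM for Pecam1 and 17.9 and 10.9 TPM for Flt1. Of pituitary markers, Gh had 0 counts in both libraries, Prl 1 in replicate 2 and 0 in replicate 1, and Pomc 19 and 0. Alb of liver had 105 counts (5.22 TPM) in replicate 2 and 3 in replicate 1, and Acta1 of skeletal muscle 129 counts (9.55 TPM) and 1. In bulk tissue, fewer neurons and less RNA per neuron cannot be told apart. With both libraries from 1 mouse, variation between animals is not sampled. Each side of the comparison is 1 library, and no difference below has a replicate check.

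Transcript models of Snap25 differ by a pair of alternative exons, and those of Napb by a skipped exon, and these stretches, which set apart the transcripts whose shares are given, are shown from GENCODE M21 (GRCm38). The fifth exon of Snap25 has 118 bases in either form, at chr2:136769743-136769860 in the transcript Snap25-202 and chr2:136770057-136770174 in Snap25-201 (plus strand). The upstream form is the one used in SNAP-25a, which prevails early in development, and the downstream form is that of SNAP-25b, which prevails in adult brain. Capitals mark the 31 bases at which they differ.
Snap25-202: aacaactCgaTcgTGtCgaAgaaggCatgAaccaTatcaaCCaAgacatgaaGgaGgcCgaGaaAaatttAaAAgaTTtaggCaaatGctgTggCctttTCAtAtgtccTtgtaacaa
Snap25-201: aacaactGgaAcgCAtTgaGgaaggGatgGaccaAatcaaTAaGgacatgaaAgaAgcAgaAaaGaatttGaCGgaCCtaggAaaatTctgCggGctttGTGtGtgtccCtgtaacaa
The exon of Napb that Napb-202 lacks is exon 4 of the 11 in Napb-201, 47 bases at chr2:148707159-148707205 (minus strand), and all 47 are coding. Skipping it changes the reading frame, and Napb-202 has 345 coding bases against 894 in Napb-201 and is annotated as a target of nonsense-mediated decay.
Napb-201 exon 4: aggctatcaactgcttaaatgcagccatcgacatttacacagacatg

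The complexin paralogues are close in sequence, with 320 of 402 coding bases (79.6%) identical in an ungapped alignment. Their first 120 coding bases are shown with the 16 that differ in capitals, a stretch more alike than the coding part as a whole.
Cplx1-201: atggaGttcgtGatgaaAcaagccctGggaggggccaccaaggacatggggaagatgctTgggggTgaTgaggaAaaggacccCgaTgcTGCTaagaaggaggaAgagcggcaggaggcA
Cplx2-201: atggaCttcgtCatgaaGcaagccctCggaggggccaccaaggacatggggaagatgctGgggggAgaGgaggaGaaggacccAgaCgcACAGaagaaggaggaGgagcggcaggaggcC
The authors' posterior SD of the count was 0 for all 8 genes in both libraries, so their estimate held no uncertainty in dividing reads between a member and another gene. Between Vamp2 and Vamp1 the coding identity was 75% over 356 alignment columns.

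Snap25 was the most abundant of the 8 in both libraries and Vamp2 the next, Nsf and Cplx2 kept their places, and the other 4 changed places. The order in replicate 2 was Snap25, Vamp2, Cplx1, Nsf, Cplx2, Napb, Stx1a and Vamp1. In replicate 1 it was Snap25, Vamp2, Napb, Nsf, Cplx2, Cplx1, Vamp1 and Stx1a. Among all genes Snap25 ranked 21 by TPM in replicate 2 and 19 in replicate 1, while Stx1a ranked 734 and 12252. Over the 8 genes, Spearman's rho between the libraries' TPM was 0.76 and Pearson's r of log2(TPM + 1) was 0.78, given as a description of 8 genes that share the same libraries. In the order of replicate 2, Stx1a and Vamp1 were the closest neighbours: their posterior mean TPM was 165.5 (the authors' interval 158.7 to 172.5) and 154.1 (149.7 to 158.5), and these intervals do not overlap. Nor did the intervals of any other neighbours overlap, in either library. They come from the deposited tables, whose headers do not give their level, and cover the reads of 1 library only. Between the libraries the spread was wider: Snap25 averaged 3110 ± 490.1 TPM, Vamp2 509.5 ± 285.6, Cplx1 280.1 ± 294.5, Nsf 259.1 ± 178.1, Napb 230.2 ± 11.4, Cplx2 216.5 ± 189.6, Vamp1 112.2 ± 77.3 and Stx1a 89.2 ± 125.1 TPM (SD, n = 2 libraries of 1 mouse). By these means only Snap25 stood clear of its neighbour by more than the SDs.

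**Figure D1:**
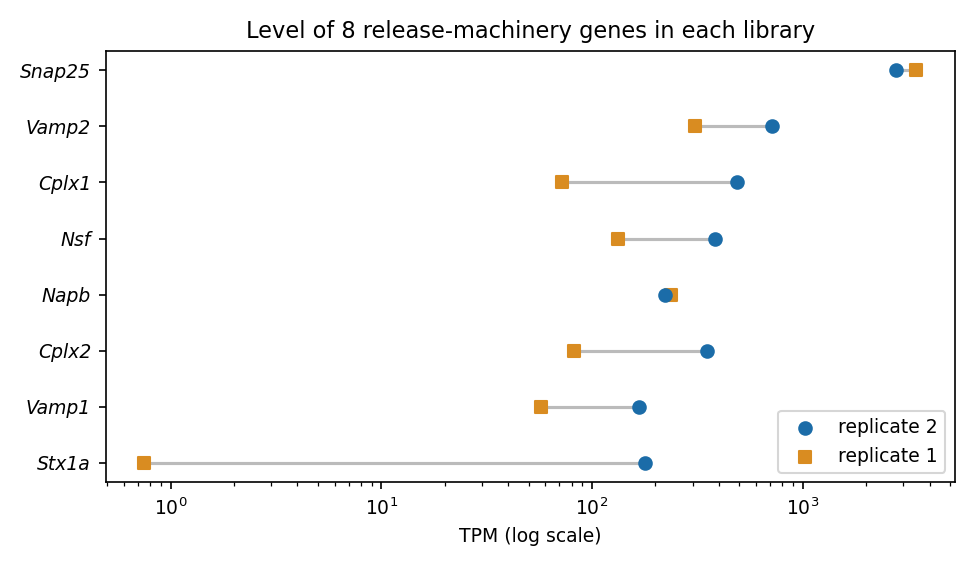
TPM of each gene (horizontal, log scale) in replicate 2 (circles) and replicate 1 (squares), 1 library each, with genes ordered by mean TPM and a line joining the libraries. The points of Snap25 and Napb lie close together, whereas Stx1a spans 178 TPM in replicate 2 and 0.75 TPM in replicate 1.

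Among the plasma membrane SNAREs, Snap25 differed by less than 2-fold in TPM and Stx1a by far more. With TMM counts, and without mitochondrial genes, Snap25 was at least 2-fold lower in replicate 2 (log2 ratios of -1.34 and -1.28). Snap25 (ENSMUSG00000027273.9, chromosome 2, 136713453 to 136782428, plus strand) had 2764 TPM in replicate 2 and 3457 TPM in replicate 1, from 56191 and 95643 counts. The ratio of replicate 2 over replicate 1 was 0.800 (95% exact counting interval 0.791 to 0.808). Stx1a, which encodes syntaxin-1A, the anchor of the complex (ENSMUSG00000007207.6, chromosome 5, 135023482 to 135051100, plus strand), had 177.7 TPM in replicate 2 and 0.75 TPM in replicate 1. Its counts were 3592 and 20, and its TPM ratio was 237 (153 to 388). Only the library of replicate 2 thus gave Stx1a at the level of the other members. Counting intervals here and below are Clopper-Pearson and cover counting error only.

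The vesicle SNAREs were both at least 2-fold higher in replicate 2 in TPM. That did not hold with TMM counts, where the log2 ratios were 0.56 for Vamp1 and 0.21 for Vamp2, or against genes of the same 5% GC class, where they were -0.08 and -0.39. Vamp2, the main synaptobrevin of forebrain (ENSMUSG00000020894.12, chromosome 11, 69088490 to 69092384, plus strand), had 711.5 TPM in replicate 2 and 307.6 TPM in replicate 1, a ratio of 2.31 (2.25 to 2.37). Vamp1, its paralogue used more by spinal and brainstem neurons (ENSMUSG00000030337.12, chromosome 6, 125215551 to 125245964, plus strand), had 166.9 and 57.5 TPM, a ratio of 2.90 (2.76 to 3.05). The paralogues kept their order within each library. Vamp2 stood at 4.26 times the TPM of Vamp1 in replicate 2 (4.13 to 4.41) and 5.35 times in replicate 1 (5.10 to 5.61). Tapbpl, which overlaps the Vamp1 locus on the other strand, had 100 counts in replicate 2 and 17 in replicate 1.

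The complexins changed places in TPM. Cplx1 (ENSMUSG00000033615.9, chromosome 5, 108518554 to 108550024, minus strand) had 488.3 TPM in replicate 2 and 71.8 TPM in replicate 1, a ratio of 6.80 (6.48 to 7.13). Cplx2 (ENSMUSG00000025867.8, chromosome 13, 54371349 to 54383917, plus strand) had 350.6 and 82.5 TPM, a ratio of 4.25 (4.13 to 4.38). Cplx1 was thus the higher of the pair in replicate 2, at 1.39 times Cplx2 (1.36 to 1.43), and the lower in replicate 1, at 0.871 times (0.828 to 0.916). Against genes of the same GC class, the log2 ratio of Cplx1 between the libraries was -0.28 and that of Cplx2 0.47. Against the genes nearest in GC content, the ratios lay closer together, at -0.02 for Cplx1 and 0.12 for Cplx2. The level comparison is per length. In counts Cplx2, whose transcript of 4928 bases is longer than the 2189 bases of Cplx1, was the higher in both, with 18016 against 10597 in replicate 2 and 5623 against 2071 in replicate 1.

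The disassembly genes split. Nsf, the ATPase (ENSMUSG00000034187.14, chromosome 11, 103821782 to 103954056, minus strand), had 385 TPM in replicate 2 and 133.2 TPM in replicate 1, a ratio of 2.89 (2.81 to 2.98). Napb, the adaptor (ENSMUSG00000027438.10, chromosome 2, 148693985 to 148732467, minus strand), had 222.1 and 238.2 TPM, a ratio of 0.932 (0.909 to 0.957). Its paralogue Napa, expressed in most tissues, had 187.1 and 21.9 TPM. Napb was therefore 1.19 times Napa in replicate 2 (1.14 to 1.23) and 10.9 times in replicate 1 (9.89 to 12). The GC content was 44.1% for Napb and 55.2% for Napa. Against the genes nearest in GC content, their log2 ratios between the libraries were 0.05 and 0.49. With TMM counts the log2 ratio was 0.54 for Nsf and -1.07 for Napb.

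The make-up of the set followed. The 8 genes summed to 5266 TPM in replicate 2 and 4349 TPM in replicate 1. Snap25 held 52.5% of that sum in replicate 2 and 79.5% in replicate 1. Without Snap25 the sums were 2502 and 891.6 TPM. Relative to Vamp2, its partner in the complex, Snap25 was 3.88-fold higher in replicate 2 and 11.2-fold higher in replicate 1, and relative to Napb 12.4-fold and 14.5-fold.

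On log2(TPM + 1), 6 of the 8 genes were at least 2-fold higher in replicate 2 and 0 were at least 2-fold lower. Of the 14229 genes whose TPM averaged 1 or more, 49.3% were that far apart, 47.7% higher and 1.65% lower, and the median log2 ratio was 0.88. The median of the members was 1.52. The log2 ratios were 6.67 for Stx1a, 2.75 for Cplx1, 2.07 for Cplx2, 1.52 for Vamp1 and Nsf, 1.21 for Vamp2, -0.10 for Napb and -0.32 for Snap25.

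Which genes count as higher or lower depended on the scale. Mitochondrial genes and 6 named nuclear copies made up 28.1% of replicate 2 and 63.1% of replicate 1 by TPM. Rescaled to the remaining genes, 3 members were at least 2-fold higher in replicate 2 (Stx1a, Cplx1 and Cplx2) and 2 lower (Snap25 and Napb), where 34.9% and 22.7% of genes were (57.6% in either direction). Snap25 then stood at 3843 TPM in replicate 2 and 9364 TPM in replicate 1, a log2 ratio of -1.28. On counts with TMM library sizes, a scaling that trims extreme genes, the split of members was also 3 and 2, against 36.5% and 24.7% of genes (61.2% in either direction). With library totals it was 5 and 0, against 45.2% and 8.19% (53.4% in either direction). Stx1a, Cplx1 and Cplx2 were at least 2-fold higher with each of these scalings. Vamp1, Vamp2 and Nsf had log2 ratios of 0.56, 0.21 and 0.54 with TMM.

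**Figure D2:**
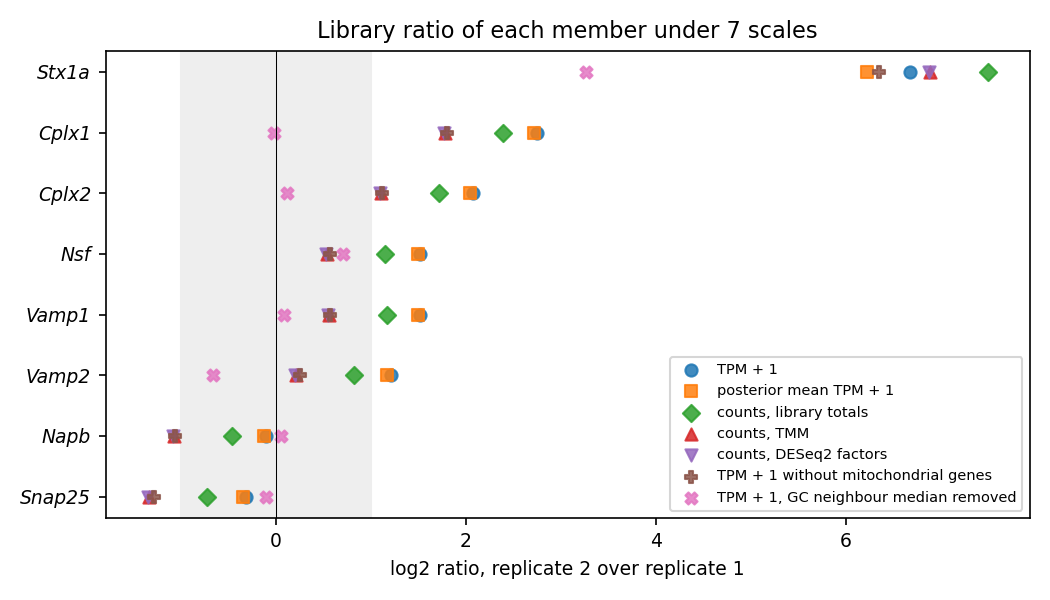
Log2 ratio of replicate 2 over replicate 1 (horizontal) for each gene under 7 scales (markers); the grey band spans less than 2-fold. Stx1a lies to the right of the band under each of them, between 3.26 and 7.49, while Snap25 lies at 0 or below, between -1.35 and -0.11.

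The ratios of the members followed the GC content of their transcripts. Snap25 and Napb had 43.6% and 44.1% GC and the lowest ratios, and Stx1a and Cplx1 had 58.4% and 56.0% and the highest. Over the 8 genes Pearson's r of the log2 ratio with GC content was 0.85 and Spearman's rho 0.90. Over 14188 genes they were 0.82 and 0.89. Within the transcripts, the untranslated stretch after the stop codon had 37.3% GC in Snap25-201, 42.3% in Napb-201, 54.2% in Cplx1-201 and 58.7% in Stx1a-201. The coding parts spanned less, from 48.5% in Napb-201 to 60.9% in Cplx2-201. The untranslated stretch before the start codon ran from 58.1% in Snap25-201 to 78.8% in Stx1a-201. All points share the same libraries, and the part of GC content in the ratios was not tested. The comparison that follows sets each member beside genes of like GC content, and also removes whatever else varies with GC content.

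Against genes of like GC content most members did not stand apart. The log2 ratio minus the median over the gene and the 500 genes nearest in GC content was -0.66 for Vamp2, -0.11 for Snap25, -0.02 for Cplx1, 0.05 for Napb, 0.08 for Vamp1, 0.12 for Cplx2 and 0.70 for Nsf. For Stx1a it was 3.26. Of the 500 other genes nearest to Stx1a in GC content, 9 had a ratio at least as high, whereas 252 did for Cplx1 and 62 for Nsf. On log2(TPM + 1), only genes of high level in replicate 2 can reach the ratio of Stx1a. Genes of low level among the 500 could not count, so the 9 does not set Stx1a apart from them. On that scale 1 of 8 members was at least 2-fold higher, where 9.69% of genes were, and 0 were lower, where 7.98% were (17.7% in either direction). Stx1a rests on 20 counts in replicate 1. Its counting interval of 153 to 388 is on the plain TPM ratio of 237, and not on the ratio of TPM + 1 used here.

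**Figure D3:**
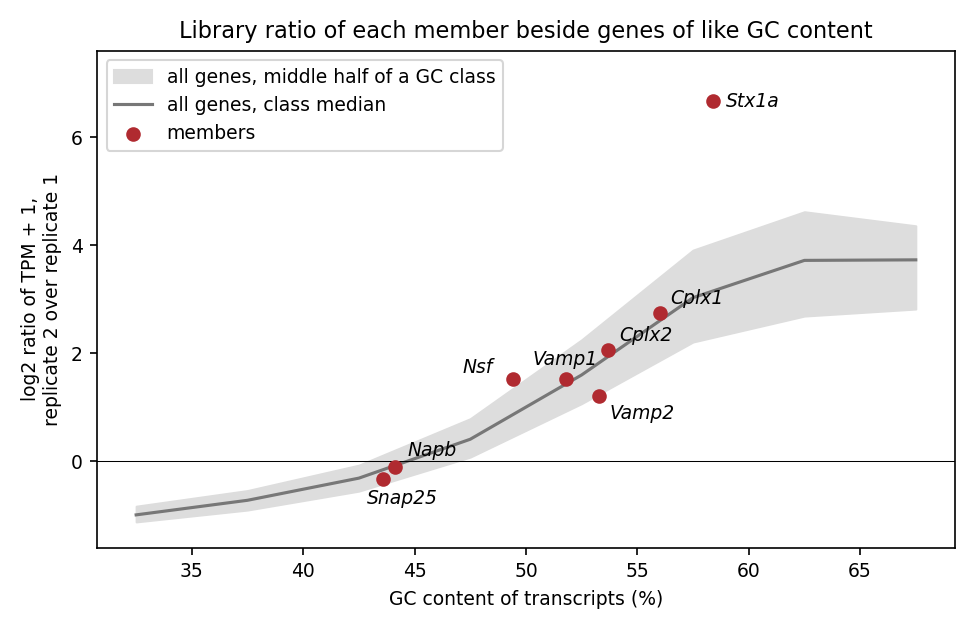
Log2 ratio of TPM + 1, replicate 2 over replicate 1 (vertical), against GC content of transcripts in percent (horizontal). Red points are the 8 genes, the line is the median of genes averaging 1 TPM or more in 5% GC classes, and the grey area spans the lower to the upper quartile; Stx1a at 6.67 lies above its class median of 3.03, and Snap25 at -0.32 lies on its class median of -0.31.

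Most members were read as a single transcript in both libraries. Cplx2 has 1 annotated transcript, and Cplx1-201 held 100% of its gene's TPM in both libraries. Vamp2-201 held 97.7% in replicate 2 and 99.2% in replicate 1, and Nsf-202, out of 10 annotated transcripts, held 98.5% and 99.1%. Vamp1-201 held 91.4% and 95.7%. Stx1a-201 held 89.4% in replicate 2, and its 91.2% in replicate 1 rests on 20 counts: by the authors' posterior mean the share in replicate 1 was 32.6%.

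Snap25 was read almost wholly as the transcript with the adult exon. Snap25-201 held 94.95% of the gene's TPM in replicate 2 and 99.0% in replicate 1. Snap25-202, with the early exon shown above and named here after its values were seen, held 5% and 0.91%, or 138 and 31.6 TPM. In expected counts that is 1239 of 56191 in replicate 2, a share of 2.20% (exact interval 2.09 to 2.33), and 377 of 95643 in replicate 1, a share of 0.394% (0.355 to 0.436). The intervals do not overlap. The models differ elsewhere too: the last exon has 277 bases in Snap25-202 and 1354 in Snap25-201, and the GC content is 51.3% and 43.4%. The part of these differences in the shares was not tested.

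The transcripts of Napb were divided differently in the libraries. Napb-201, the coding transcript, held 97.8% of the gene's TPM in replicate 2 and 55.3% in replicate 1. Napb-202, without exon 4, held 1.62% and 44.1%. In TPM, Napb-201 had 217 in replicate 2 and 132 in replicate 1, and Napb-202 had 3.59 and 105. On that scale near-equal gene levels stood beside unequal transcript levels. Rescaled without mitochondrial genes, the gene levels were not near-equal, at 308.9 TPM in replicate 2 and 645.2 TPM in replicate 1. The authors' posterior mean TPM of Napb-202 was 4.40 in replicate 2 (interval 1.03 to 8.58) and 100.1 in replicate 1 (83.8 to 120.4), and these intervals do not overlap. The posterior SD of its count was 105 in replicate 2 and 596 in replicate 1, the largest of any transcript of the 8 genes in either library. Beside exon 4, which has 42.6% GC, the models differ by 54 bases at the start of Napb-201, of which 72.2% are G or C; the part of that stretch in the shares was not tested.

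Shifts in the leading transcript's share were common among all genes, and most were smaller than that of Napb. Of 4023 genes with at least 2 transcripts and at least 10 TPM in both libraries, the leading transcript of replicate 2 differed in share by at least 10 percentage points in 58.8%, a limit chosen after the values were seen. Of the 6 members in that set 1 did, Napb. The median difference was 14.1 points, and 17.4% of genes differed by more than Napb. In 30.6% of genes another transcript led in replicate 1, which was not so for any of these 6 members.

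**Figure D4:**
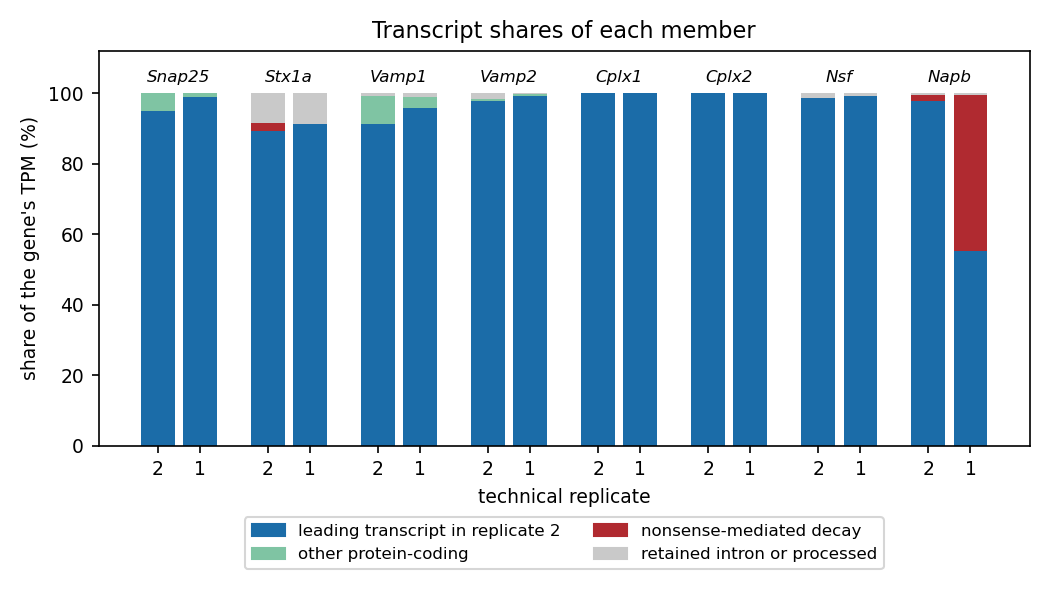
Share of each gene's TPM in percent (vertical) held by its transcripts, with replicate 2 left of replicate 1 for each gene. Blue is the transcript that leads in replicate 2, and red is transcripts annotated as nonsense-mediated decay, which hold 44.1% of Napb in replicate 1 and 1.62% in replicate 2.

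Other genes of membrane fusion were measured beside the members. The wider list names 42 genes, of which 41 were measured and 40 averaged 1 TPM or more. Of these 40, 18 were at least 2-fold higher in replicate 2 and 0 lower (47.7% and 1.65% of all genes), with a median log2 ratio of 0.68. With TMM counts 14 were higher and 9 lower, where 36.5% and 24.7% of all genes were. Without the mitochondrial genes the numbers were 12 and 9, where 34.9% and 22.7% of all genes were. These shares are near those of all genes.

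Of the other SNAREs of the plasma membrane and vesicles, 4 of 10 were at least 2-fold higher on TPM + 1, where 47.7% of all genes were. With TMM counts 5 were higher and 3 lower, where 36.5% and 24.7% of all genes were. Snap47 had 329.8 TPM in replicate 2 and 72.1 TPM in replicate 1, and Vamp4, a SNARE of endosomes and the Golgi, had 85.5 and 138 TPM. Snap23, the paralogue of Snap25 in other tissues, had 13.9 and 16.7 TPM, and Snap25 was 198.4 times as high in replicate 2 (176.4 to 224) and 207.1 times in replicate 1 (190.2 to 226). That ratio was the most alike of the 4 paralogue ratios given, and the GC content of the genes was 43.6% for Snap25 and 41.8% for Snap23. Vamp2 and Vamp1, with 53.3% and 51.8% GC, had a ratio of 4.26 in replicate 2 and 5.35 in replicate 1. The part of GC content in these ratios was not tested.

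Among the regulators 4 of 9 were at least 2-fold higher on TPM + 1, where 47.7% of all genes were. With TMM counts 4 were higher and 3 lower, where 36.5% and 24.7% of all genes were. Snapin, which binds SNAP-25, had 47.8 TPM in replicate 2 and 45.7 TPM in replicate 1, and Stxbp6, which encodes amisyn, had 37.6 and 47.8 TPM. Of the 2 other SNAP genes, Napa was higher, and Napg had 98.4 and 80.4 TPM. Cplx3, a complexin of retina and some cortical neurons, had 11.5 and 1.18 TPM, and Cplx4, known from retina, had 1 count in replicate 2 and 0 in replicate 1, where a count of 0 allows a share of up to 1.64e-05%.

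SNAREs of endosomes and the Golgi act in membrane traffic of any cell. Of these, 8 of 18 were at least 2-fold higher on TPM + 1, where 47.7% of all genes were. With TMM counts 3 were higher and 3 lower, where 36.5% and 24.7% of all genes were. Vti1b had 220.1 TPM in replicate 2 and 154.1 TPM in replicate 1, Stx12 87.7 and 99.1 TPM, and Stx7 82.2 and 97.5 TPM. Use1, of traffic to the endoplasmic reticulum and named for its value, had 120.5 and 1.56 TPM, from 897 and 14 counts. Its log2 ratio of 5.57 was the highest of the wider list and below the 6.67 of Stx1a. With the median of genes of like GC content removed, 3 of the 40 were at least 2-fold higher and 0 lower, where 9.69% and 7.98% of all genes were.

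**Figure D5:**
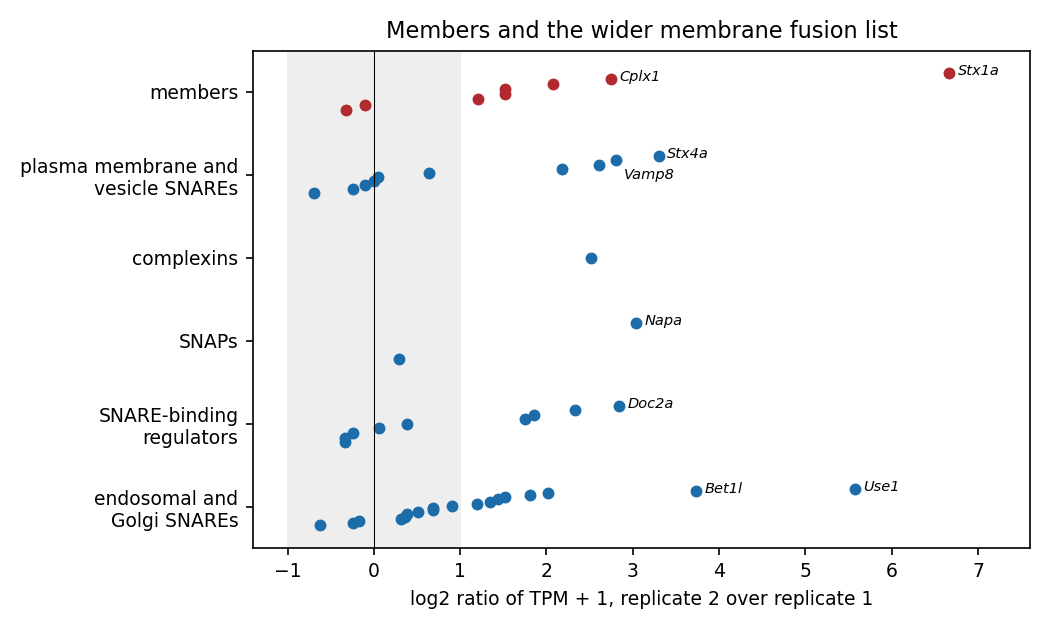
Log2 ratio of TPM + 1, replicate 2 over replicate 1 (horizontal), for the 8 members (red) and 40 genes of the wider fusion list in 5 groups (blue), each point 1 gene. The grey band spans less than 2-fold; no point lies left of it, and Stx1a at 6.67 and Use1 at 5.57 lie farthest to the right.

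The gene nearest to each member in level over both libraries was found by the Euclidean distance of log2(TPM + 1), over 2 libraries. With 23332 candidate genes and only 2 values for each, a small distance shows a like level and not a shared function. For Snap25 it was Calm2, a calmodulin gene, at 3006 TPM in replicate 2 and 3887 TPM in replicate 1 (distance 0.208). For Stx1a it was Cabp1, a calcium-binding protein gene, at 170.9 and 0.73 TPM (0.0578). For 5 others it was Olfm1 (Vamp2), Sdf4 (Vamp1), Atp6v0b (Cplx1), Ttyh1 (Nsf) and Vxn (Napb), at distances of 0.0146 to 0.165. The GC content of these 7 genes was 42.7 to 59.8%.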

How the data were processed

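Gene and transcript tables of both libraries were used as the authors deposited them. The authors' expected counts are estimates that need not be whole, and they were rounded here. The TPM values are the authors' own, at gene and transcript level. So is the percent of a gene's TPM assigned to a transcript, as the authors deposited it. Posterior means, SDs and TPM intervals stand beside them, per the file headers. The deposited file lists name mm10 and GENCODE M4; quantifier and aligner: not given in the sources used here. Rows without an Ensembl identifier held 1 count in replicate 2 and 0 in replicate 1 and were left out. Symbols, coordinates and sequences were read from GENCODE M21 on the same build (GRCm38); 33 of the 34 member transcripts had the same length in it. A gene's GC content is the TPM-weighted mean over its transcripts. Vamp7 was not analysed here.

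Ratios are log2 of TPM + 1, replicate 2 over replicate 1, which understates changes of low genes. Counting intervals are exact Clopper-Pearson at 95% from rounded expected counts. No p-value is given: with 1 library per side, neither edgeR (quasi-likelihood) nor DESeq2 could be fitted. TMM sizes came from edgeR 4.0.16, median-of-ratios size factors from DESeq2 1.42.0 (R 4.3.3), over 16320 genes with at least 10 counts, with 0.5 added to counts. Tables were handled with pandas 2.3.3 and numpy 2.4.6 in Python 3.11.15, intervals came from scipy 1.17.1, and plots from matplotlib 3.10.9. The fold rule and intervals were checked on simulated counts that held only counting error and set changes. The simulation had no GC trend and no mitochondrial difference between libraries, so it does not cover how the rule behaves in these data. The members, lists and paralogue pairs were chosen with earlier results of these data known. Named genes are the members, the 3 of highest mean TPM in each group of the wider list, the paralogues, the nearest genes, and member transcripts with a share of at least 10% in either library. The comparison of genes with their 500 nearest in GC content was added after seeing the data. Some genes that this rule names are not reported here.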

Additional observations from a re-analysis of the deposited data

How the results depend on the processing

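The count of 6 members at least 2-fold apart became 2 (Stx1a and Nsf) with the median of the 5% GC class removed. On that scale 11.7% of all genes were higher and 8.41% lower. The count became 1 (Stx1a) with the median over the 500 genes nearest in GC content removed. The 18 genes of the wider list became 6 with the class median removed and 3 with the neighbour median removed. Called ratios changed sign with the class median removed for Vamp1 (-0.08), Vamp2 (-0.39) and Cplx1 (-0.28), and with the neighbour median removed for Vamp2 (-0.66) and Cplx1 (-0.02); both remove a median by construction. Of all genes, 7018 were at least 2-fold apart, and 3948 with a mean TPM of at least 10, where fewer genes enter. Of the calls, 96.7% were higher in replicate 2 on TPM + 1, 59.6% with TMM and 84.7% with library totals.

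Mean paralogue log2 ratios moved when counts were not divided by length, to 1.87 for Vamp2 over Vamp1 (2.26 in TPM), -1.10 for Cplx1 over Cplx2 (0.14) and 7.57 for Snap25 over Snap23 (7.66), which was 7.50 with posterior means. The mean share of Stx1a-201, 90.3%, was 60.4% with posterior means and 96.2% in counts; that of Nsf-202, 98.8%, was 97.4% and 99.6%; that of Cplx1-201 was 99.7% with posterior means. The mean TPM of Napb, 230.2, was 214.7 with posterior means. The other alternatives moved these levels, shares and paralogue ratios by less than the spread between the libraries. The members' own log2 ratios moved beyond their counting intervals, with no change of a called sign, in 42 further cases over all scales, and not in 17. No paired analysis was possible because there is 1 group. Leaving out a library gives the value of the other: 0.75 to 178 TPM for Stx1a and 55.3 to 97.8% for Napb-201. Stx1a has 20 counts in replicate 1, which limits its ratio.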
